A study of Mus musculus with 4 samples.

Results

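Neutrophils of the mouse ovary were described in 101 cells of 4918, of which 66 of 2423 came from gonadotropin-treated mice and 35 of 2495 from untreated mice. The cells are viable CD45+ (leukocyte) cells sorted from dissociated ovaries. The mice were C57BL/6J females, 10 to 12 weeks old, and the ovaries were taken 48 h after gonadotropin or, in the untreated group, after saline. Each group held 5 mice, which are numbered 1 to 5 here as names only. Cells were marked with a hashtag antibody for their mouse, and each group was run as 1 pool and 1 single-cell library (10x Genomics 3' v3), so that treatment, pool and library cannot be told apart. The labels give neither the hormones nor the doses.

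Members were chosen by their own transcripts. A barcode with a single hashtag, at least 500 genes and under 10% mitochondrial UMIs (unique molecular identifiers, each standing for 1 counted transcript) was taken as a neutrophil with at least 20 UMIs of S100a8 plus S100a9, at least 2 of Csf3r, Cxcr2, Retnlg and Il1r2 together, and at most 1 of each of 2 lymphocyte sums, Cd79a plus Ms4a1 and Cd3d plus Cd3e plus Cd3g. In the members the first sum ran from 21 to 1337, with a median of 279, and the second from 3 to 202, with a median of 35. The members just inside the first limit had 21, 27, 30, 31 and 32 UMIs, and the 4 nearest cells outside it had 16, 14, 13 and 12. Those 4 cells had 15, 18, 15 and 28 UMIs of the second sum. Another 1 kept cell met both sums but was over the lymphocyte limits. B cell-like cells, which should lack these transcripts, were taken with fewer than 20 UMIs of S100a8 plus S100a9, and carried at most 2. They held any in 3.09% of cells of gonadotropin mice and in 2.06% of cells of untreated mice, at median depths of 6218 and 7204.5 UMIs. All neutrophils held some, by the choice itself, at median depths of 3912 and 4256 UMIs in the gonadotropin and untreated mice. Hemoglobin transcripts, at most 1 UMI a cell, were seen in 19.7% of neutrophils after gonadotropin and in 2.86% of untreated neutrophils. This difference was not particular to neutrophils. In B cell-like cells hemoglobin was seen in 29.0% of cells of gonadotropin mice and in 3.98% of cells of untreated mice, with up to 28007 and 5 UMIs a cell. The libraries shared 4 barcode sequences, none of them of a neutrophil.

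Neutrophils are short-lived granulocytes made in the bone marrow, which leave the blood by rolling and firm adhesion and follow chemokines, leukotrienes and complement fragments into tissue. They make their granule proteins in order while they mature in the marrow (azurophil, then specific, then gelatinase granules), and reach tissue with the proteins stored and most of those transcripts gone. In the ovary they gather around ovulation, a process with features of inflammation in which prostaglandins and proteases take part, and in the regressing corpus luteum.

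Neutrophil markers outside the rule, all but Cd177, were higher in neutrophils than in monocyte-like and macrophage-like cells. All 16 neutrophil markers that the rule did not use were detected, and their summed level was 15069 CPM (UMIs scaled to 1000000 per class or mouse) in neutrophils, against 465 CPM in 168 classical monocyte-like cells and 2192 CPM in 161 macrophage-like cells. Slpi alone made up 1789 CPM of the macrophage-like sum. Cd177 went the other way, at 27.9 CPM in neutrophils and 56.3 CPM in monocyte-like cells. Ly6g, whose protein is the usual surface marker of mouse neutrophils, was thin, with 7 UMIs in 5 cells. Trac, Cd4 and Cd8a of lymphocytes and Vcan of monocytes were at 0 UMIs. So were Prg2 and Epx of eosinophils and Cpa3 and Mcpt8 of mast cells and basophils. Ms4a1 and Cd3e were at 0 UMIs too, but the rule itself limits them. With 430810 UMIs in all neutrophils together, 0 UMIs allows up to 6.96 CPM, for counting error only. Other markers of these cell types were present. Of lymphocytes, Cd79b had 6 UMIs in 4 cells, Trbc1 2 UMIs in 2 cells and Trbc2 1 UMI. Cd79a, Cd3d and Cd3g, which the rule limits, had 2, 4 and 2 UMIs. Csf1r of monocytes and macrophages had 59 UMIs in 32 cells, and Ly6c2 of monocytes 13 UMIs in 9 cells. Adgre1 of macrophages had 52 UMIs in 25 cells, and Siglecf of eosinophils 17 UMIs in 12 cells. Of these, 43 UMIs of Csf1r and 42 of Adgre1 lay outside the 21559-UMI cell described below. The summed level of 8 macrophage markers was 262 to 3093 CPM in the gonadotropin mice and 0 to 639 CPM in the untreated mice. One neutrophil of gonadotropin mouse 4, with 21559 UMIs where the next highest had 7937, carried most of these UMIs. It held 216 of the 286 UMIs of Apoe and 38 of the 42 of C1qa, and also 317 UMIs of Cd74 and 122 of H2-Ab1, beside 425 of S100a8 plus S100a9. The edgeR fit within neutrophils and the one against all other leukocytes were also run without it, while levels and list medians include it.

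S100a9 and S100a8, on which the cells were chosen and which are the subunits of the calcium- and zinc-binding protein calprotectin, stood at 44358 and 38339 CPM in neutrophils, against 2.66 and 4.88 CPM in classical monocyte-like cells. The genes of highest level relative to all other cells included the secreted proteins Lcn2 (lipocalin 2, which binds bacterial iron carriers), Retnlg (a resistin-like hormone) and Mmp9 (gelatinase B). They also included the receptors Cxcr2 (for CXC chemokines), Csf3r (for granulocyte colony-stimulating factor) and Il1r2 (a decoy for interleukin 1), and the enzymes Ptgs2, Acod1, Arg2 and Dhrs9. These are levels of cells chosen by some of the same transcripts, and the comparison cells were taken from outside the rule, so no test was made. Cstdc4 and Stfa2l1, at 599 and 703 CPM, had the highest levels relative to all other cells, ahead of S100a8 and S100a9. Cstdc4 was seen in 25 cells, at 4154 CPM in untreated mouse 5 and 889 CPM in the next highest mouse, gonadotropin mouse 4. Stfa2l1 was seen in 37 cells and stood at 0 CPM in untreated mouse 5. Both genes belong to a stefin cluster of near-identical genes, and their reads may be split or shared between copies.

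**Figure D1:**
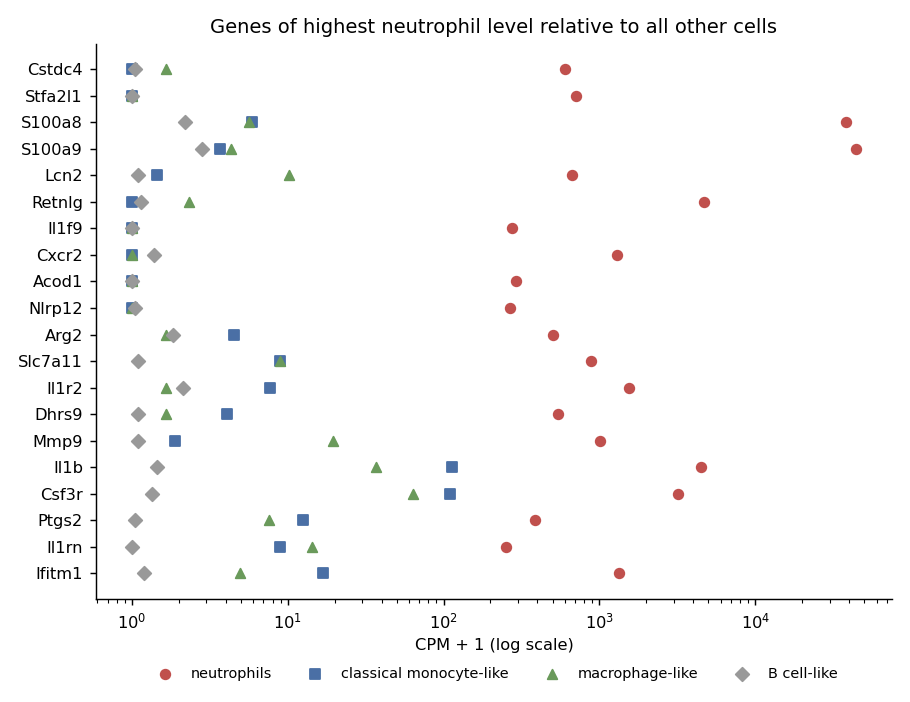
Level of each of the 20 genes of highest neutrophil level relative to all other cells, as CPM plus 1 on a log scale, in 101 neutrophils, 168 classical monocyte-like, 161 macrophage-like and 2395 B cell-like cells summed over all mice. The calprotectin genes S100a8 and S100a9 lie farthest right, and Il1b and Csf3r are the only genes of the 20 with a monocyte-like level above 100 CPM.

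The promoter windows of S100a8 and S100a9, the transcripts of highest level in neutrophils, and of Csf3r, the receptor of the main granulocyte growth factor, are shown with 2 short motifs marked. The windows run from 250 bases before to 50 after the annotated start, 5′ to 3′ on the gene's strand, from RefSeq on GRCm38.p6. They lie at chr3:90668821-90669120 on the plus strand for S100a8, chr3:90695672-90695971 on the minus strand for S100a9 and chr4:126024409-126024708 on the plus strand for Csf3r. Capitals mark GAGGAA, a core bound by the ETS factor PU.1, or its reverse complement TTCCTC, and TTGCNNAA, a core of C/EBP sites, or its reverse complement TTNNGCAA.
S100a8: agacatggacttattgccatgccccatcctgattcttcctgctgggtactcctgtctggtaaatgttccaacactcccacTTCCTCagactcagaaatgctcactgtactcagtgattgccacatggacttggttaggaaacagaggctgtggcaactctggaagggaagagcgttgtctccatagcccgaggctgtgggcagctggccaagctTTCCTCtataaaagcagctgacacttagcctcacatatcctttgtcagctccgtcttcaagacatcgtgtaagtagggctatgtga
S100a9: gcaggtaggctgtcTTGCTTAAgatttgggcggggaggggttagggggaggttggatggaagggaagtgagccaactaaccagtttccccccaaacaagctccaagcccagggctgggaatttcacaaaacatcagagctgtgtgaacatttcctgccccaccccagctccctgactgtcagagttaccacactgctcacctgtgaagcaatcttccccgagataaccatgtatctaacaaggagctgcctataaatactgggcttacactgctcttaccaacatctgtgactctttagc
Csf3r: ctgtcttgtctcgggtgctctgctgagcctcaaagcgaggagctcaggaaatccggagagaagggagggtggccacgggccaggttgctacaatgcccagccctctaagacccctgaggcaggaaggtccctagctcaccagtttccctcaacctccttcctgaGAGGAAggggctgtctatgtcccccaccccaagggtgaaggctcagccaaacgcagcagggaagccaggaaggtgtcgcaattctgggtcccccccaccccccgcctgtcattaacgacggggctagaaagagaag
Of the 20 genes, 18 had a window in the table. GAGGAA or its reverse complement was in 10 of the 20 windows of these 18 genes and in 28.3% of all 32851 windows. TTGCNNAA on either strand was in 6 of the 20 windows and in 10.8% of all windows. In S100a8 both matches were reverse complements, starting 170 and 36 bases before the start site. Csf3r had 1 match of GAGGAA, 86 bases before it, and S100a9 had 1 match of TTGCNNAA, 236 bases before it. No match of one motif overlapped a match of the other in these windows. These are matches of letters, with no measurement of binding.

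Transcripts of granule proteins were mixed, some at 0 and others present within the same class. Of 8 primary (azurophil) granule genes 4 had UMIs, and of 12 secondary (specific) granule genes 10 had. Mpo, Elane, Ctsg and Ms4a3 of azurophil granules were at 0 UMIs, as were Camp and Ngp of specific granules. Ltf (lactoferrin), a specific granule gene, had 4 UMIs. Lcn2, also of the secondary granule genes, stood at 662 CPM, and Mmp8 (neutrophil collagenase) at 202 CPM. Mmp9 stood at 1014 CPM and Pglyrp1 (a peptidoglycan-binding protein) at 940 CPM. Lyz2 (lysozyme) stood at 2590 CPM in neutrophils and at 18411 CPM in monocyte-like cells. Of the cell division genes, Top2a, Birc5, Cdk1 and Mcm5 were at 0 UMIs, and Mki67 had 3 UMIs.

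Receptors for several kinds of attractant were present. All 12 chemoattractant receptors were detected, led by Cxcr2 at 1300 CPM. C5ar1 (for complement C5a) stood at 740 CPM in neutrophils and 44.0 CPM in monocyte-like cells, Ccr1 at 585 and 65.6 CPM, and Ptafr (for platelet-activating factor) at 351 and 79.4 CPM. Cxcr1, a second receptor for CXC chemokines, had 3 UMIs. Cxcr4, the receptor that holds neutrophils in the marrow and is known to rise as they age, stood at 395 CPM in neutrophils and at 39.9 CPM in monocyte-like cells. Of the receptors for ovarian and pituitary hormones, those for progesterone, luteinizing hormone, follicle-stimulating hormone and prolactin (Pgr, Lhcgr, Fshr and Prlr) were at 0 UMIs, and the estrogen receptor Esr1 had 4. Nr3c1, the glucocorticoid receptor, stood at 344 CPM.

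Il1b stood at 4457 CPM in neutrophils, against 113 CPM in monocyte-like and 35.8 CPM in macrophage-like cells. Its antagonist Il1rn stood at 251, 7.98 and 13.2 CPM in the same order, while Il1a had 4 UMIs. Csf1, the growth factor of macrophages, stood at 327 CPM in neutrophils and at 2.66 and 1.99 CPM in monocyte-like and macrophage-like cells. Ptgs2, the inducible cyclooxygenase that ovulation needs in granulosa cells, was seen in 50 of the 101 neutrophils, at 383 CPM, against 11.5 CPM in monocyte-like cells. Ptges, which makes prostaglandin E from its product, was at 0 UMIs. Of the leukotriene enzymes, Alox5 and its partner Alox5ap stood at 244 and 1425 CPM. Of the angiogenic list, Vegfa had 2 UMIs and Prok2 none, while Ninj1 and Osm stood at 341 and 74.3 CPM.

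The neutrophils also differed among themselves. A principal component analysis of 4353 genes placed them along a first component that held 4.66% of the variance, against 2.15% for the next. At its high end lay Retnlg, Lyz2, Hp (haptoglobin), Ccl6, Slpi and S100a9. At its low end lay Cstb and Ctsb (cystatin B, an inhibitor of cysteine cathepsins, and cathepsin B), Fth1 (ferritin heavy chain), Clec4n (dectin-2), Tgfbr1 and Jun. Retnlg stood at 10566 CPM in the 33 cells of highest score, 3214 CPM in the 35 cells between and 295 CPM in the 33 cells of lowest score. Hp stood at 2117, 1641 and 466 CPM in the same order. Cstb ran the other way, at 55.0, 166 and 1029 CPM, and Fth1 likewise, at 4008, 6534 and 17593 CPM. Csf3r and Cxcr2 moved less, at 3774 and 1327 CPM in the 33 highest cells and 2197 and 1180 CPM in the 33 lowest. Retnlg had the largest weight on the component and set its sign. The genes at each end were picked by their weights, so their order along the score is a description and no test. Retnlg, S100a9, Csf3r and Cxcr2 are also genes of the rule.

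The order did not follow depth. The Spearman correlation of the score with the cell's UMIs was 0.147 over 101 cells, and scores after thinning each cell to 2000 UMIs kept a correlation of 0.986 with the original. With the CPM of S100a8 plus S100a9, on which the cells were chosen, the score had a Spearman correlation of 0.549. These cells share libraries and mice, so all of these correlations are descriptions. Siglecf, reported on some tissue neutrophils, stood at 6.87 CPM in the 33 highest cells and 91.8 CPM in the 33 lowest, on 17 UMIs in all. Ccl3 stood at 0 CPM in the highest cells and 315 CPM in the lowest. Il1b stood at 5053 CPM in the highest, 6203 CPM in the middle and 2367 CPM in the lowest cells.

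Scores varied within every mouse. The 33 highest cells were 27 of gonadotropin mice and 6 of untreated mice, and the 33 lowest were 18 and 15. The median scores were 0.399, -4.29, 5.29, 5.91 and 7.61 in gonadotropin mice 1 to 5, and -8.47, -1.05, -2.49, 4.17 and 4.08 in untreated mice 1 to 5. The medians of the groups overlap, and gonadotropin mice 1 and 2 lie below untreated mice 4 and 5. Untreated mouse 4 was split, with 2 of its 5 cells at -25.8 and -25.1, the lowest of all neutrophils.

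**Figure D2:**
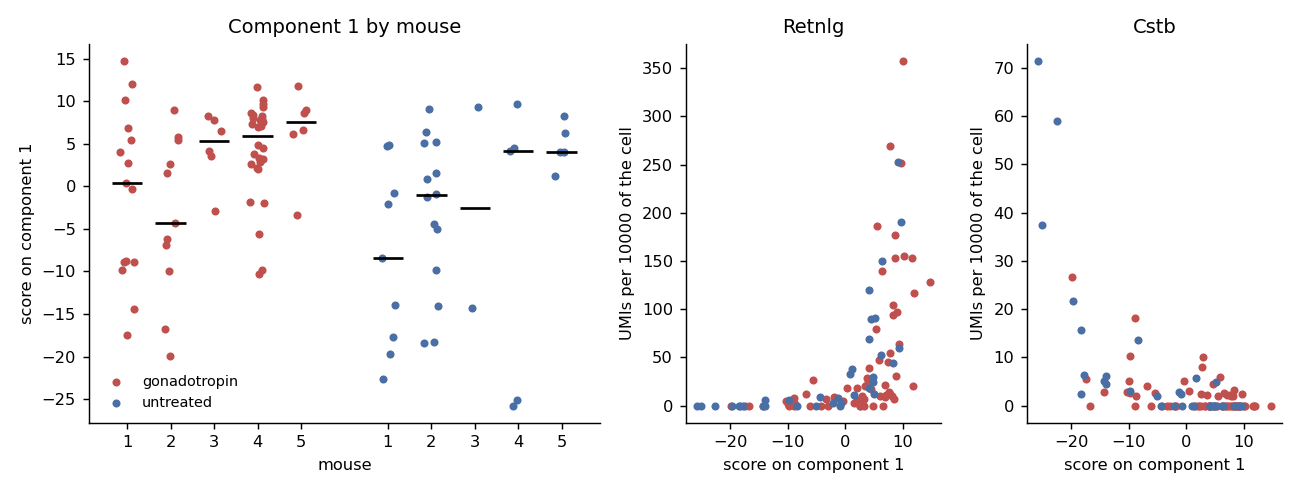
Left, score of each neutrophil on the first principal component by mouse, gonadotropin mice left of untreated mice, with the median of each mouse as a line. Middle and right, Retnlg and Cstb in UMIs per 10000 UMIs of the cell against the score. Retnlg is near 0 below a score of about 0 and Cstb is highest in the lowest-scoring cells, 2 of which belong to untreated mouse 4.

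Neutrophils made up a larger mean share of the leukocytes after gonadotropin, without passing the test. The share was 2.66%, 2.91%, 2.07%, 3.38% and 1.65% in gonadotropin mice 1 to 5, from 15, 11, 6, 28 and 6 neutrophils. It was 1.78%, 2.15%, 0.629%, 1.69% and 0.689% in untreated mice 1 to 5, from 9, 14, 2, 5 and 5 neutrophils. The groups overlap, with gonadotropin mice 3 and 5 within the range of the untreated mice. The exact binomial interval of a single mouse was wide, for example 2.26% to 4.85% in gonadotropin mouse 4 and 0.0763% to 2.25% in untreated mouse 3. These intervals cover counting error only. The mean was 2.53% ± 0.685 after gonadotropin and 1.39% ± 0.689 in untreated mice (SD, n = 5 each), a difference of 1.15 percentage points (two-sided exact permutation test over mice, p = 0.0556, where the smallest p possible is 0.00794).

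**Figure D3:**
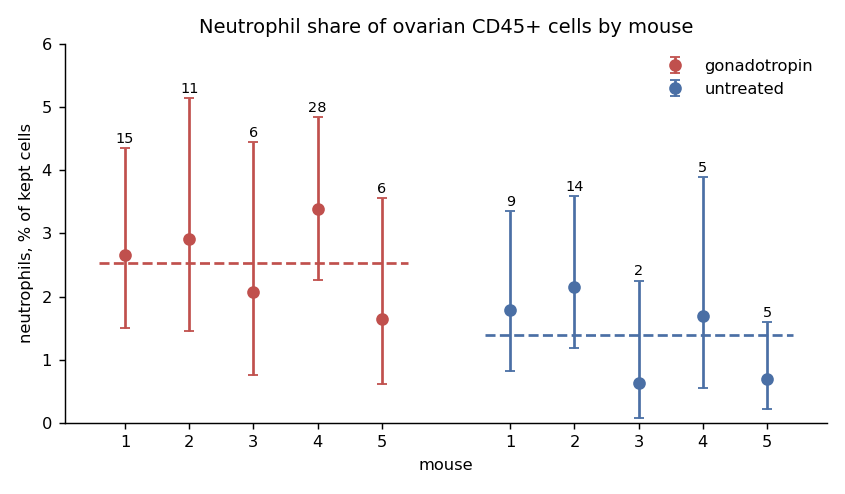
Neutrophils as a percentage of all kept cells of each mouse (y axis), gonadotropin mice left of untreated mice, with exact binomial 95% intervals as bars, group means as dashed lines and the number of neutrophils above each bar. The points of 3 of 5 gonadotropin mice lie above those of all untreated mice, and the interval of gonadotropin mouse 4 reaches neither that of untreated mouse 3 nor that of untreated mouse 5.

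The direction of this difference depended on the denominator. B cell-like cells were 1037 of the 2423 kept cells of gonadotropin mice and 1358 of the 2495 of untreated mice. Among cells within the lymphocyte limits, neutrophils were 7.99% ± 2.72 after gonadotropin and 8.34% ± 5.28 in untreated mice (SD, n = 5 each), a difference of -0.35 points with p = 0.889 in the exact permutation test. Among neutrophils, classical monocyte-like and macrophage-like cells together, a denominator added after the data were seen, they were 22.2% ± 9.24 and 24.1% ± 15.1, with an exact permutation p of 0.794. Cell numbers per ovary are not given, so more neutrophils and fewer lymphocytes cannot be told apart. Hashtag doublets that met the marker sums numbered 11 after gonadotropin and 2 in the untreated pool. Adding hashtag doublets to the mouse of their first tag, in the neutrophil counts and in the totals, gave mean shares of 2.39% and 1.15%. The difference was then 1.24 points at the smallest p possible, 0.00794, in the exact permutation test.

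Depth per neutrophil did not separate the groups beyond the spread of the mice. The median UMIs per neutrophil of a mouse ran from 3643 to 4353 after gonadotropin (5 mice) and from 4032 to 4702 in the 4 untreated mice with at least 3 neutrophils. The difference of the mean medians was -307.5 UMIs (two-sided exact permutation test, p = 0.198). Neutrophils held a median of 4094 UMIs and 1575 genes, against 7323.5 UMIs and 2612 genes in all kept cells. Their median mitochondrial share was 0.114%, against 2.09% in all kept cells.

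No gene passed the threshold between the neutrophils of the groups. UMIs were summed per mouse for the 5 gonadotropin mice and the 4 untreated mice with at least 5 neutrophils, which left out untreated mouse 3. The sums held 20220 to 131579 UMIs, and edgeR's quasi-likelihood test with Benjamini-Hochberg adjustment called 0 of 727 genes (0%) at an adjusted p under 0.05. At an unadjusted p under 0.05 there were 59 genes, 33 of them higher and 26 lower after gonadotropin, and 24 genes (3.30%) had values that did not overlap between groups. DESeq2 called 0 of 10513 genes, with 163 at an unadjusted p under 0.05. Without the 21559-UMI cell, 0 genes were called and 61 had an unadjusted p under 0.05. The genes of smallest p in each direction are given next as values that did not pass.

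Pip5k1b, a kinase that makes the membrane lipid phosphatidylinositol bisphosphate, stood at 593, 626, 713, 570.0 and 710 CPM in gonadotropin mice 1 to 5, against 161, 325, 42.6 and 247 CPM in untreated mice 1, 2, 4 and 5. Every gonadotropin mouse lay above every untreated mouse (log2 fold change 1.59 ± 0.37 SE, adjusted p = 0.22 in edgeR's quasi-likelihood test). Ipcef1, which binds the cytohesin activators of ARF GTPases, averaged 612 ± 94.0 CPM after gonadotropin and 231 ± 116 CPM in untreated mice (SD, n = 5 and 4). Klf3, a transcriptional repressor, averaged 652 ± 165 and 270 ± 66.2 CPM, and Cd84, a receptor of the SLAM family, 717 ± 99.2 and 390 ± 55.7 CPM. None of these groups overlapped.

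Cers6 (a ceramide synthase), Antxr2 (an anthrax toxin receptor that binds matrix proteins) and Mbp (the locus of myelin basic protein and the golli proteins) also had no overlap, with log2 fold changes of 1.19, 1.04 and 1.19. Il1rap, the co-receptor of the interleukin 1 receptors, averaged 781 ± 318 CPM after gonadotropin and 276 ± 195 CPM in untreated mice (SD, n = 5 and 4), with overlap between mice. Cask, a scaffold protein, overlapped too, with a log2 fold change of 1.20. The genes named in this direction had adjusted p-values between 0.22 and 0.42.

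Ftl1 (ferritin light chain) stood at 3697, 2849, 3354, 3336 and 2422 CPM in gonadotropin mice 1 to 5, against 5777, 4093, 9631 and 4303 CPM in untreated mice 1, 2, 4 and 5. The groups did not overlap, and untreated mouse 4 was far above the rest (log2 fold change -0.93 ± 0.27 SE, edgeR adjusted p = 0.42). Without that mouse the log2 fold change was -0.56. Slc7a11, the cystine importer that feeds glutathione synthesis, averaged 623 ± 282 CPM after gonadotropin and 1476 ± 574 CPM in untreated mice (SD, n = 5 and 4), with overlap. Clec4d (a C-type lectin of pathogen sensing), Card19, Cd9 (a tetraspanin), Gapdh and the early response gene Ier2 had log2 fold changes of -0.81, -1.33, -1.03, -0.74 and -0.92, all with overlap.

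The largest negative values shrank when 1 mouse was left out. Cd63, a tetraspanin of azurophil granules and lysosomes, stood at 174, 64.8, 335, 91.2 and 209 CPM in gonadotropin mice 1 to 5, against 403, 103, 2344 and 396 CPM in untreated mice 1, 2, 4 and 5. Cstb stood at 349, 453, 83.9, 152 and 0 CPM in gonadotropin mice, against 1236, 308, 2472 and 0 CPM in untreated mice. In untreated mouse 4 nearly all UMIs of both genes came from its 2 lowest-scoring cells. Without that mouse the log2 fold change was -0.84 in place of -2.34 for Cd63, and -1.23 in place of -2.14 for Cstb. Fth1, the partner of Ftl1, averaged 7627 ± 2536 CPM after gonadotropin and 16997 ± 15149 CPM in untreated mice (SD, n = 5 and 4), and untreated mouse 4 alone had 38822 CPM.

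**Figure D4:**
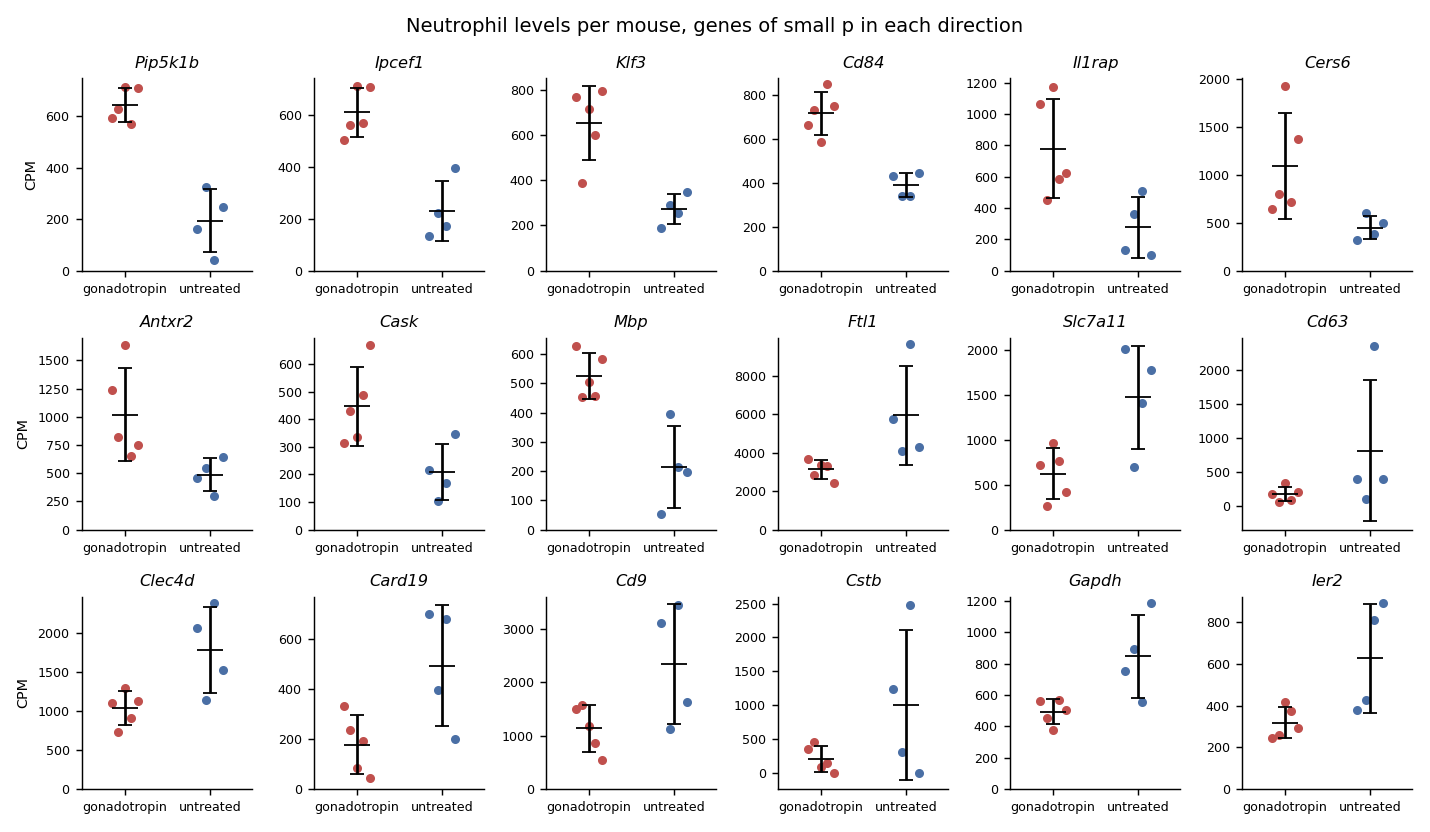
CPM in neutrophils of each mouse for 9 genes of small p in each direction, 5 gonadotropin mice left and 4 untreated mice right in each panel, with mean and SD in black. The first 9 panels have higher and the last 9 lower means after gonadotropin, none past the threshold, and untreated mouse 4 is the single high point for Cd63 at 2344 CPM.

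Described by list, members differed in direction, with 0 members called in any of 27 lists. Over all 727 genes tested, 370 had a positive log2 fold change and the median was 0.01. All 8 tested genes of adhesion and rolling were positive, with a median of 0.28, and the integrin Itga4 stood at 0.78. Itga4 averaged 692 ± 218 CPM after gonadotropin and 409 ± 13.1 CPM in untreated mice (SD, n = 5 and 4), with overlap through gonadotropin mouse 3. The 4 tested genes of secondary granules were positive too, with a median of 0.39, from Lcn2 at 0.25 to Anxa1 at 0.81. Of 8 interferon response genes 5 were positive, with a median of 0.26, led by Oasl2 at 1.06.

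None of the 10 AP-1 and early response genes was positive, with a median of -0.31, and Jun at -1.02 and Ier2 at -0.92 were lowest. Fos stood at 1221, 1187, 1719, 1664 and 1336 CPM in gonadotropin mice 1 to 5, against 1155, 2141, 2472 and 2423 CPM in untreated mice 1, 2, 4 and 5, so that only untreated mouse 1 lay below all gonadotropin mice. Of 7 tested genes of the pattern recognition list 1 was positive, with a median of -0.42. Clec4d and Acod1, an enzyme that the list also holds, were lowest at -0.81 each. Of 5 glycolysis genes 1 was positive (Slc2a3, a glucose transporter, at 0.74), while Aldoa, Gapdh and Pkm stood at -0.78, -0.74 and -0.64. Of 5 iron genes 2 were positive, with a median of -0.62, and the lowest, Fth1 and Ftl1, were highest in untreated mouse 4.

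Il1b had a log2 fold change of -0.11 and averaged 4507 ± 1269 CPM after gonadotropin and 4803 ± 1162 CPM in untreated mice (SD, n = 5 and 4). The actin and motility list, with all 19 members tested, had 7 positive and a median of -0.11. Of the matrix proteases, Mmp9 averaged 1256 ± 493 CPM after gonadotropin and 697 ± 276 CPM in untreated mice (SD, n = 5 and 4). Its log2 fold change was 0.81 (edgeR adjusted p = 0.57). The chemokine Cxcl2, an attractant of neutrophils themselves, varied widely, at 750, 1446, 0, 129 and 41.8 CPM in gonadotropin mice 1 to 5 and 1585, 771, 128 and 2127 CPM in untreated mice 1, 2, 4 and 5.

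**Figure D5:**
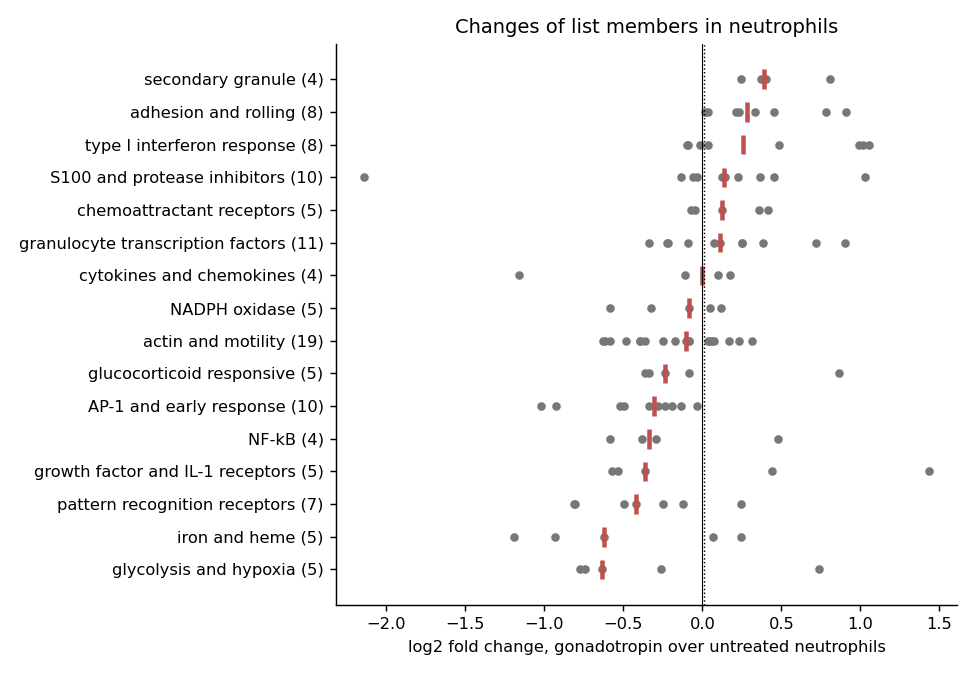
Log2 fold change in neutrophils, gonadotropin over untreated, of each tested member (grey points) of the 16 lists with at least 4 tested members, with the list median in red, the number tested in brackets, 0 as a solid line and the median of all 727 genes as a dotted line. Medians run from 0.39 for secondary granule genes to -0.64 for glycolysis and hypoxia genes, and no single gene passed the threshold.

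Whether the change in neutrophils differed from that in the other leukocytes of the same mice was tested by an interaction term with a term for each mouse. The other leukocytes were 1 sum per mouse, and their make-up differed between groups. B cell-like cells were 1037 of 2423 kept cells of gonadotropin mice and 1358 of 2495 of untreated mice. In that sum, changes within cells were not told apart from shifts in cell types. The chemokine genes Ccl4 and Ccl3, whose products attract monocytes and lymphocytes, were the 2 genes called of 9873 (0.0203%), with 488 at an unadjusted p under 0.05. Ccl4 in neutrophils averaged 3.04 CPM after gonadotropin and 244 CPM in untreated mice, and in all other cells 390 and 149 CPM, over the same 5 and 4 mice. The log2 ratio of the changes was -6.08 ± 0.93 SE (edgeR adjusted p = 6.95e-07). Ccl3 averaged 42.8 and 292 CPM in neutrophils and 100.2 and 49.5 CPM in all other cells, with a log2 ratio of -3.29 ± 0.68 SE (edgeR adjusted p = 0.00631). Without the 21559-UMI cell 8 genes were called, Ccl4 at -6.04 and Ccl3 at -3.46 among them, with 542 at an unadjusted p under 0.05.

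Few cells carried these chemokines. Ccl4 had 0, 0, 0, 2 and 0 UMIs in the neutrophils of gonadotropin mice 1 to 5, all in 1 cell, and 6, 0, 1, 11 and 7 UMIs in those of untreated mice 1 to 5, in 6 cells. In untreated mice 4 and 5 a single cell held all of them. Ccl3 had 1, 7, 0, 6 and 0 UMIs in gonadotropin mice, in 7 cells, and 18, 11, 0, 7 and 4 UMIs in untreated mice, also in 7 cells. Both were too low to be tested among the 727 genes of neutrophils alone. With no filter beyond 1 count, edgeR called both there, Ccl4 with a log2 fold change of -4.27 (adjusted p = 0.000861) and Ccl3 with -2.33 (adjusted p = 0.0224). With classical monocyte-like and macrophage-like cells in place of all other cells, the log2 ratio of Ccl3 was -0.73 and the adjusted p 0.99 in edgeR's quasi-likelihood test. Ccl4 was too low to be tested there, and 2 other genes were called. Their log2 ratios were 5.37 for Ptgs2 (edgeR adjusted p = 0.00295) and 4.69 for Ifitm1 (edgeR adjusted p = 0.0162). Within neutrophils alone their log2 fold changes were -0.26 and 0.99, neither past the threshold, so the Ptgs2 call is no rise in neutrophils. Both genes were low in the comparison cells. Over all mice, Ptgs2 stood at 11.5 CPM in monocyte-like and 6.62 CPM in macrophage-like cells, and Ifitm1 at 15.96 and 3.97 CPM. The Ccl3 call was also lost without gonadotropin mouse 1 (log2 ratio -2.87, edgeR adjusted p = 0.27) and without untreated mouse 1 (-2.57, adjusted p = 0.22), while Ccl4 was called whichever single mouse was left out.

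Other genes near the top of this comparison did not pass. Plaur, the urokinase receptor, averaged 772 and 386 CPM in neutrophils of gonadotropin and untreated mice and 77.3 and 122 CPM in the other cells (log2 ratio 1.84 ± 0.51 SE, edgeR adjusted p = 0.34). Prdx1, a peroxidase, averaged 6.08 and 548 CPM in neutrophils and 201 and 198 CPM in other cells (log2 ratio -3.43, edgeR adjusted p = 0.28). Its call turned on single mice and on 1 cell. Without the 21559-UMI cell the log2 ratio was -5.55 (edgeR adjusted p = 0.00018), and it also passed without gonadotropin mouse 4 or 5 or untreated mouse 1, 2 or 5. Without untreated mouse 4 the log2 ratio was -0.67 (edgeR adjusted p = 1). Rfx2, Crip1, Ero1lb and Fam117b had 0 UMIs in the neutrophils of the 4 untreated mice and adjusted p-values of 0.15, 0.15, 0.32 and 0.34 in edgeR's quasi-likelihood test. Without the 21559-UMI cell Plaur, at 1.87, and Rfx2 passed (edgeR adjusted p = 0.029 and 0.0477).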

How the data were processed

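Ovarian CD45+ cells of 5 gonadotropin-treated and 5 untreated mice were measured as 1 pooled library per group, with a hashtag library each. The values are counts, whole UMIs of a gene in a barcode, deposited by the authors without scaling (6468 barcodes, 32285 genes). Per the submitters' processing notes, Cell Ranger, bcl2fastq and Seurat were used, on build mm10, with no version given. Hashtag calls and mouse names are the authors'. The members and gene lists were chosen with earlier results of these data known.

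UMIs were summed per mouse over neutrophils and tested with edgeR 4.0.16 (quasi-likelihood, TMM, default filter on low counts, Benjamini-Hochberg over all genes tested) or DESeq2 1.42.0 as an alternative. Mice with fewer than 5 neutrophils were left out of these fits. Levels in CPM are UMIs scaled to 1000000 by the plain total, while fold changes are on TMM-scaled totals. Shares and depths per mouse were tested by exact permutation over mice. Classical monocyte-like cells had at least 4 UMIs of Ly6c2, Ccr2, F13a1 and Ms4a4c, 1 of Csf1r and at most 2 of C1q genes. Macrophage-like cells had at least 5 UMIs of C1q genes. B cell-like cells had at least 3 of Cd79a plus Ms4a1 and fewer than 20 of S100a8 plus S100a9. Monocyte-like and macrophage-like cells were taken only among cells that did not meet the neutrophil rule. The component used genes seen in at least 10 neutrophils. Named are the 10 genes of smallest p in each direction, 5 for the interaction, the 20 of highest level relative to other cells at 200 CPM or more, and list members. Some genes that this rule covers are not reported here. Genes outside it that carry a result were named after their values were seen. Doublets were those called by hashtags, and no other caller was run. The scripts were tested on simulated data. Alternatives were other scalings, filters, marker limits and denominators, and leaving out each mouse. Whether the mice were housed or handled separately is not stated in the sources used here.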

Additional observations from a re-analysis of the deposited data

Results flagged for a closer look

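Cd63 in the neutrophils of untreated mouse 4 stood at 2344 CPM, where the nearest untreated mouse had 403 CPM. It was the 1 sample standing far from its group among 46 groups of values examined (shares, depths, mitochondrial shares and the named genes), and chance marks about 1 group in 20. The mouse had 5 neutrophils, 2 of them at the low end of the first component.

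The change of 2 chemokine genes differed between neutrophils and the other leukocytes of the same mice by the interaction test in edgeR. The log2 ratio of the changes was -6.08 for Ccl4 and -3.29 for Ccl3. Both rest on few UMIs. The neutrophils of the 5 gonadotropin mice held 2 UMIs of Ccl4 and 14 of Ccl3, and those of the 4 untreated mice in the fit held 24 and 40.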

How the results depend on the processing

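The difference in share was 1.15 points and kept its sign under every other marker limit, cell filter and scale tried, except with 2 other denominators, where it was -0.35 (cells within the lymphocyte limits) and -1.85 points (neutrophils, monocyte-like and macrophage-like cells). In exact permutation tests it passed with a second marker sum of at least 5 (1.21, p = 0.0397), without lymphocyte limits (1.22, p = 0.0317) and with hashtag doublets added (1.24, p = 0.00794). Leaving out 1 mouse gave 0.934 to 1.37, which passed the exact permutation test without gonadotropin mouse 5 (p = 0.0238) or untreated mouse 2 (p = 0.0397). The depth difference ran from -404.8 to -181.5 UMIs without 1 mouse and passed under no setting.

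With no filter beyond 1 count, 21 genes were called in neutrophils (12 higher, 9 lower). The higher ones included Cd74, H2-Aa, H2-Ab1, H2-Eb1, C1qa and Apoe, of which 1 cell held most UMIs. The higher named genes Pip5k1b and Il1rap were also called (edgeR adjusted p = 0.0375 and 0.0438). Among the lower ones were the named genes Cd63 and Cstb (edgeR adjusted p = 0.00262 and 0.00137), and also Fth1 and Prdx1. Every other setting called 0. Of 398 values of the 20 named genes under other settings, 396 kept their direction. The exceptions were Cd63 (0.0426) and Cd9 (0.14) with only mice of at least 10 neutrophils, where 1 untreated mouse remains and is assumed to vary like the others. With a first sum of at least 50, which also drops untreated mouse 4, Cd63 stood at -0.56, Cstb at -0.31 and Ftl1 at -0.28.

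The interaction called 2 genes, and 18 with library totals only (2 higher, 16 lower), where the median of all genes moved from 0.18 to -0.04, and 3 with all mice. Without the 21559-UMI cell, a setting chosen after seeing the data, it called 8 (2 higher, 6 lower). Without 1 mouse it called 1 to 11. Against monocyte-like and macrophage-like cells Il1r2, on which the cells were chosen, had a ratio of 1.63 in place of -2.01. The cause of these moves was not tested beyond what the settings remove. No paired analysis was possible because mouse numbers are names within each pool. Between 2 and 28 neutrophils per mouse limit every value here, and each treatment is 1 library.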
